A study of Rattus norvegicus with 67 samples.

Results

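The interval described here is chr1:215500001-217000000 of the Rnor 6.0 rat genome, a stretch of 1.5 Mb that holds Igf2, H19, Kcnq1 and Cdkn1c. Its members are the 1500 consecutive windows of 1000 bp in this stretch, chosen by position alone, among 282764 windows on chromosome 1 and 2782040 in all. The values are histone H3 ChIP-Seq reads from sperm of F3 generation Sprague Dawley rats, males of 1 year of age, counted separately for 66 animals. The atrazine lineage descends from F0 generation females that received 25 mg/kg of the herbicide atrazine on gestation days 8 to 14, and the F3 generation itself was not exposed. The control lineage descends from females given the vehicle, dimethyl sulfoxide (DMSO). Of the 50 atrazine lineage animals 19 had no disease, 14 had multiple disease, 5 were lean, 5 had late puberty, 4 had testis disease and 3 had kidney disease. The 16 control lineage animals were used as a single group, and 9 of them had no disease. A treatment tag in the sample labels contradicts the lineage of every control animal and of 13 atrazine animals, so the lineage comparison rests on the titles and lineage labels. The methods speak of sperm pools and name a pan H3 antibody or an antibody to a trimethylated form, and the tables of counts settle neither point.

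During sperm formation protamines replace most histones, and ChIP-Seq for H3 counts DNA from sites where histones were retained. Chromosome 1 of the rat carries a pair of neighbouring imprinted domains, in which the copies inherited from the father and the mother are expressed unequally. In the Igf2-H19 domain, Igf2, a fetal growth factor, is expressed from the paternal copy and H19, a noncoding RNA, from the maternal copy, and the control region between them is methylated in sperm. In the Kcnq1 domain a noncoding RNA expressed from the paternal copy silences neighbours such as Cdkn1c, an inhibitor of cyclin-dependent kinases that restrains growth. Kcnq1 itself encodes a potassium channel subunit of heart and inner ear. In RefSeq's GRCr8 gene table the order runs, with other genes between them, from H19 and Igf2 through Ins2 (insulin), Th (tyrosine hydroxylase), Ascl2 (a transcription factor of the placenta), Tspan32, Cd81, Tssc4, Trpm5 and Kcnq1 to Cdkn1c, Slc22a18, Phlda2, Nap1l4 and Osbpl5. No annotation of Rnor 6.0 was used here, so windows other than the one listed under Kcnq1 are given by position and not by gene.

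The promoters of 12 of 16 listed genes of these domains were found in RefSeq's promoter table for GRCr8. H19, Kcnq1, Kcnq1ot1 and Cdkn1c have no entry there. The sequences shown are the 250 bases before the start site of a gene of each kind, 5′ to 3′ on the gene's strand, with CpG dinucleotides, the sites of DNA methylation, in capitals. They are shown for their CpG content, and none of them is taken here as a control region of imprinting. The windows that hold them in Rnor 6.0 were not identified.
Igf2, minus strand, start a: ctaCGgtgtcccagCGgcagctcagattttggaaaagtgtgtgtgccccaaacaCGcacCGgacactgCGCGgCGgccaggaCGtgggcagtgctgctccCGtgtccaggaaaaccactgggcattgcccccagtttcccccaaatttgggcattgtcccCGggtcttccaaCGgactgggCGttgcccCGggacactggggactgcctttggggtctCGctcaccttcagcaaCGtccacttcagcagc
Igf2, minus strand, start b: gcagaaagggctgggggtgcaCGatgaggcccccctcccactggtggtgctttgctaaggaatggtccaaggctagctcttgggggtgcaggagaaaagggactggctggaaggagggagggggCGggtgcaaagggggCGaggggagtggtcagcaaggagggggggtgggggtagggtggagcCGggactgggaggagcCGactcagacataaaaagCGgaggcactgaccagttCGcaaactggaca
Phlda2, minus strand: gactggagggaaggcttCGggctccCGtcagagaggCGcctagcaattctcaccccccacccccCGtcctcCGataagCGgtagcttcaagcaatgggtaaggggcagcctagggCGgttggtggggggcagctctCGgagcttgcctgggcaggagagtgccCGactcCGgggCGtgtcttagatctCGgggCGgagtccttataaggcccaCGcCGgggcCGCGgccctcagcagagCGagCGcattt
Ins2, minus strand: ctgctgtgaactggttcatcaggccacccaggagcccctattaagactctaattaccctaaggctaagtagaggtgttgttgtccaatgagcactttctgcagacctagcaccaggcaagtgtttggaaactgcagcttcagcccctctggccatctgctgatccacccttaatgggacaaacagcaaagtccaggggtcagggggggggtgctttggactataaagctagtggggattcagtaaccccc
The Phlda2 sequence, from a gene that limits placental growth, had 19 CpG, and 18.4% of the 33469 promoters in the table had at least as many. The Igf2 sequences had 15 and 7 CpG, and 25.8% and 45.2% of all promoters had at least as many. The Ins2 sequence had 0 CpG, while the median of all promoters was 5. These counts describe the reference sequence and no measurement in sperm.

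Histone H3 reads lay evenly over most of the interval. The median window had 0.38 RPM (reads on the per-million scale of each animal's total), averaged over 66 animals, against 0.38 RPM for the median window of chromosome 1. The middle of the distribution was narrower than on the chromosome, since 89.5% of the interval's windows lay between 0.8 and 1.2 times the chromosome 1 median and 72.2% of all chromosome 1 windows did. Windows of at least 1.5 times the chromosome 1 median, called peak windows here, numbered 19, or 1.27% of the interval against 5.11% of chromosome 1. At a threshold of 2 times the median there were 8, or 0.533% against 3.21%. Of 186 other stretches of 1.5 Mb on chromosome 1, 145 held more peak windows than the interval and 39 held fewer, with a median of 44. The interval was thus a stretch with few peak windows of H3 reads, and this is a description without a test, since windows are not replicates. No input library was set against the counts, so peak windows were not checked for copy number or for how well reads map there.

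**Figure D1:**
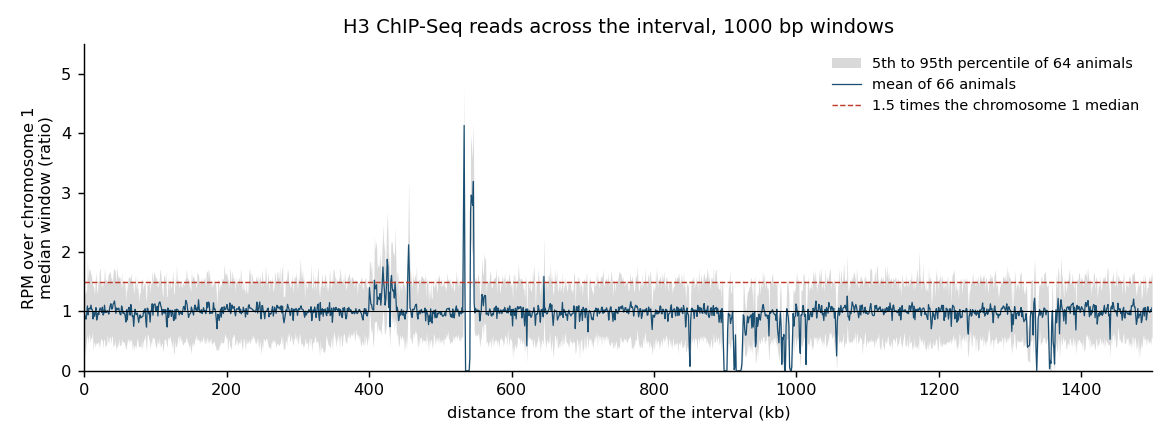
Mean RPM of each 1000 bp window over 66 animals, divided by the median window of chromosome 1, against the distance from the start of the interval in kb. The dashed line marks 1.5 times the median, the grey band spans the 5th to the 95th percentile of 64 animals (without M28 and M48), and 18 of the 19 peak windows lie between 407 and 547 kb.

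The peak windows formed 8 runs, and 7 of them lay between chr1:215907001 and 216047000. The longest run, chr1:216042001-216047000, had 5 windows with a mean of 1.10 RPM, 2.90 times the chromosome 1 median. The run chr1:216032001-216035000 had 3 windows with a mean of 1.04 RPM, and its middle window, chr1:216033001-216034000, was the highest of the interval at 1.57 RPM or 4.13 times the median. This window ranked 1453 among the 282764 windows of chromosome 1. The rank and the means of this run and window include animals M48 and M28, described below, which lay above all others there. In the other 64 animals the median was 1.28 RPM in this window and 0.866 RPM for the mean of its run. The rank without M48 and M28 was not computed. Between these runs lay chr1:216035001-216041000, 6 windows with 0 reads in each of the 66 animals. With 3879579147 reads in all, a count of 0 allows up to 0.000773 RPM, which is the level of 3 reads. Whether reads can be mapped to empty windows was not tested, so missing reads there need not mean missing histones.

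The remaining runs were weaker. A run of 3 windows, chr1:215954001-215957000, reached 1.82 times the median, and 3 runs of 2 windows starting at 215919001, 215925001 and 215930001 lay between 1.55 and 1.81 times. The single windows chr1:215907001-215908000 and chr1:216145001-216146000 stood at 1.53 and 1.59 times. In blocks of 100000 bp the highest mean, 1.13 times the chromosome 1 median, was in chr1:215900001-216000000, which held 10 of the 19 peak windows. The next block, chr1:216000001-216100000, had 1.09 times the median and 8 peak windows. The lowest block was chr1:216400001-216500000 at 0.673 times, where 19 of the interval's 30 windows below 0.1 times the median lay. Such windows were 2% of the interval against 5.92% of chromosome 1. Of these 30 windows 19 had 0 reads in all animals, as did 13021 of the 282764 windows of chromosome 1. The other 12 blocks lay between 0.883 and 1.02 times the median.

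The spread between animals in the median window was 1.43 times what counting alone gives. Over the 1449 windows whose mean reached 10 reads the median coefficient of variation (CV) of RPM across 64 animals was 33.3%, against 23.3% from counting error alone. The animals' mean reads per window of the interval were between 6.66 and 82.2. The CV exceeded 2 times the counting error in 3 windows, which start at 216662001, 215770001 and 216033001. The 5 windows of the longest run, which hold more reads, had CVs of 17.9% to 20.4%, against 12.7% to 13.95% from counting error.

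Animals M28 (lean) and M48 (multiple disease), both of the atrazine lineage and left out of the 64, stood apart from the others. M48 had 1303 RPM in the interval, with a 95% Wilson interval of 1287 to 1319 from 26255 reads. M28 had 889 RPM, with an interval of 878 to 901 from 23559 reads. The other 64 animals had between 451 and 752 RPM with a median of 528. These intervals cover counting error only. The depths of M48 and M28, 20151792 and 26487836 reads, were in the lower part of the range of 19909382 to 239635003. The median window of the interval held 3.33 times as many reads as the median window of chromosome 1 in M48, 1.88 times in M28 and 0.845 to 1.44 times in the others. These ratios are coarse, since they rest on 10 against 3 reads in M48 and 15 against 8 in M28. The libraries of both also differed outside the interval. Their TMM scaling factors over all windows tested were 0.619 (M48) and 0.913 (M28), against 0.980 to 1.03 in the others.

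The peak runs beside the empty stretch went in opposite directions in these animals. At chr1:216033001-216034000, M48 had 13.9 RPM from 280 reads and M28 had 5.93 RPM from 157 reads, while the other 64 animals had 0.533 to 2.56 RPM with a median of 1.28. Both animals were above every other animal there. Over the 5 windows of chr1:216042001-216047000, M48 had a sum of 1.34 RPM and M28 of 3.28 RPM, while the others had 3.88 to 7.40 RPM with a median of 5.60. Both were below every other animal there. The sum over chr1:216032001-216035000 was 25.4 RPM in M48, 9.66 RPM in M28 and 1.50 to 5.34 RPM in the others.

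**Figure D2:**
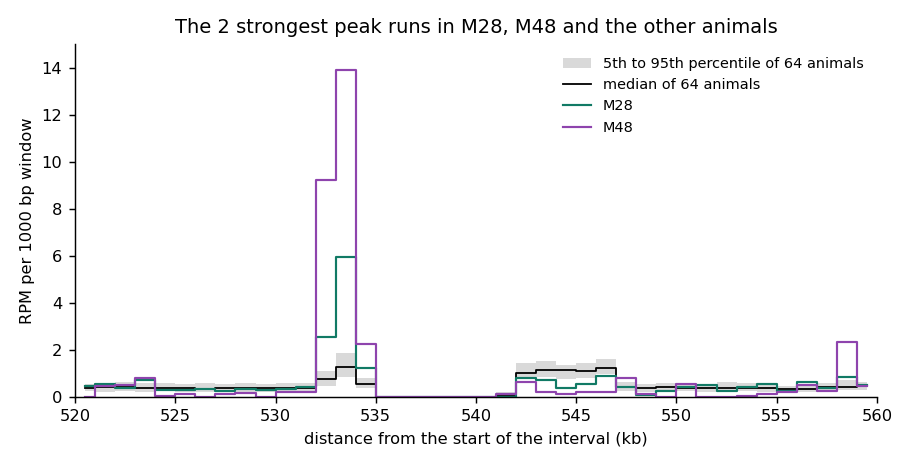
RPM of each 1000 bp window against the distance from the start of the interval in kb, for M28, M48 and the median of the other 64 animals, with the 5th to 95th percentile in grey. In the run at 532 to 535 kb M48 and M28 lie above the other animals, and in the run at 542 to 547 kb below them, with 6 empty windows between.

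The same animals differed along the whole interval. M48 exceeded every one of the 64 in 614 of 1449 windows and lay below every one in 247, and M28 did so in 506 and 45. These counts were made in the interval alone, without a share over other windows, so they do not set the interval apart. The windows with the largest excess in M48 were chr1:216703001-216704000, with 4.96 RPM against a median of 0.285, and chr1:216155001-216156000, with 4.66 RPM against 0.276. M28 had 1.59 and 1.06 RPM in them. In the block with most peak windows, chr1:215900001-216000000, M48 had 0.574 times and M28 0.831 times the median of the other animals, and in the 14 other blocks M48 had 1.12 to 3.85 times. At the peak window chr1:215919001-215920000 M48 had 0 reads, which allows up to 0.149 RPM, while the 64 had 0.271 to 1.06 RPM and M28 0.642 RPM. Relative to the median profile of the 64 animals, the deviations of M48 over the 1449 windows had a correlation of 0.69 with those of M28 and 0.67 with those of M22, an animal without disease. The next were M42 (lean) at 0.36 and M20 (no disease) at 0.32. These are correlations across windows of the same interval, at different depths, and are given as a description.

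The comparison of the lineages asks whether histone retention in sperm differed 3 generations after the exposure. The interval took a larger share of the reads in the atrazine lineage as a whole, but not in its 13 animals whose treatment tag reads DMSO. The 16 control animals had 451 to 671 RPM with a median of 493 and a mean of 512 ± 58.01 (SD), and the 50 atrazine animals had 453 to 1303 RPM with a median of 541 and a mean of 572 ± 127 (SD). The groups overlapped over nearly the whole control range, but 48 of 50 atrazine animals lay above the control median. The difference of the log2 means was 0.15 ± 0.05 (SE), or 1.11-fold, with p = 0.00292 in a two-sided permutation test with 100000 resamples and an adjusted p of 0.0175 over 6 comparisons. The 13 tagged animals had 453 to 559 RPM with a median of 515 and a mean of 512 ± 28.9 (SD), near the control mean, and the 37 others had 513 to 1303 RPM with a median of 549 and a mean of 593 ± 141 (SD). Against the control lineage the log2 difference was 0.0064 ± 0.044 (SE) for the tagged animals alone, with a permutation p of 0.892, and 0.19 ± 0.06 (SE) for the others, with a permutation p of 0.00024. Between these parts of the atrazine lineage it was 0.19 ± 0.05 (SE), with a permutation p of 4e-05, and 0.14 without M28 and M48, with a permutation p of 8e-05. These splits by the tag were chosen after the data were seen, and no value measured here tells whether the tag or the lineage label is right. The study's table of control lineage males lists the animals titled as controls and none of those tagged DMSO, as the lineage labels do. For the whole lineage without M28 and M48 the difference was 0.11 on the log2 scale, with a permutation p of 0.00498. Between animals without disease, 19 against 9, it was 0.12 with an exact permutation p of 0.0492.

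**Figure D3:**
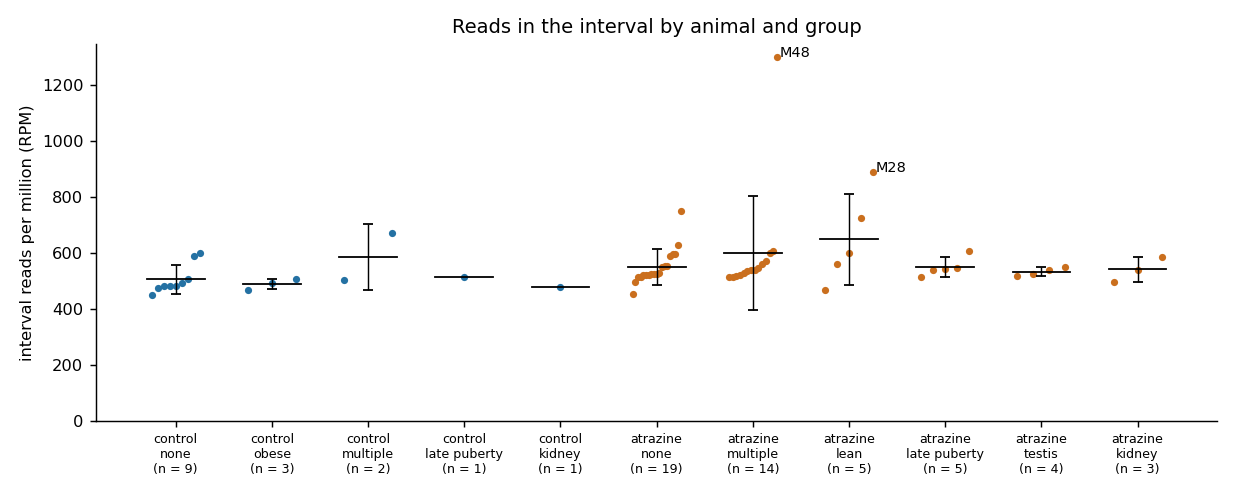
Interval RPM of each animal by lineage and disease group, with the mean as a line and the SD as an error bar. The control animals lie between 451 and 671 RPM, and M48 at 1303 RPM and M28 at 889 RPM lie above the 64 others.

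The share of the interval followed the share of chromosome 12 in the same library. Chromosome 12 took between 1.51% and 3.94% of an animal's reads, and M48 and M28, with the largest shares there, also had the largest shares in the interval. Across 66 animals the log2 values had a Pearson r of 0.995 and a Spearman rho of 0.982, each with a permutation p of 1e-05, the smallest that 100000 resamples can give. Without M48 and M28, which are farthest from the median, r was 0.989. Within the control lineage r was 0.992 (n = 16) and within the atrazine lineage 0.996 (n = 50). Both shares come from the same total, and this was the only such relation computed. Set against the reads of chromosome 12, an alternative chosen after the data were seen, the lineage difference fell to 0.03 on the log2 scale, with a permutation p of 0.00402. Chromosome 12 moved with the lineages too, with 1.70% ± 0.156 (SD, n = 16) of reads in control and 1.86% ± 0.356 (SD, n = 50) in atrazine animals. It was 1.69% ± 0.0866 (SD, n = 13) in the atrazine animals tagged DMSO and 1.92% ± 0.395 (SD, n = 37) in the others. Against the reads of chromosome 12 the difference from the control lineage was 0.011 with a permutation p of 0.261 for the tagged animals and 0.03 with a permutation p of 0.0023 for the others. What moves both shares was not tested.

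**Figure D4:**
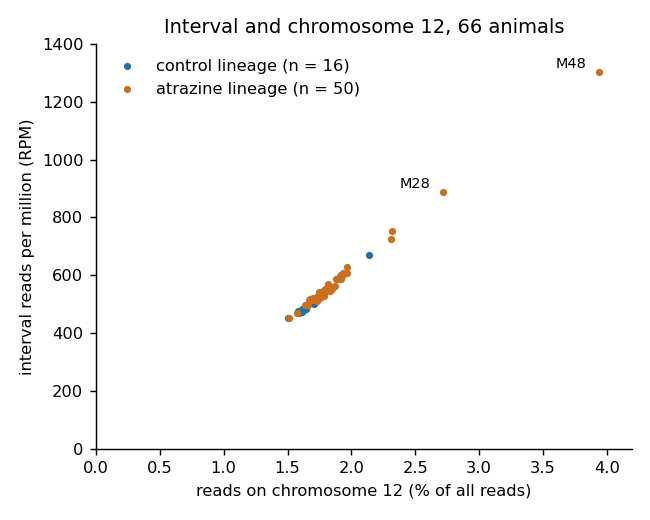
Interval RPM against the percentage of an animal's reads on chromosome 12, for 16 control and 50 atrazine lineage animals. The points lie close to a single line (Pearson r of 0.995 on log2 values), with M28 and M48 at its upper end.

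The lineage difference was spread over the interval rather than held in single windows. All 15 blocks of 100000 bp were higher in the atrazine lineage, by 0.05 to 0.19 on the log2 scale, and the smallest difference was in chr1:215900001-216000000, the block with most peak windows. Among 1449 windows tested with edgeR's quasi-likelihood test, 86.0% had a higher level in the atrazine lineage, with a median log2 fold change of 0.16. Over all 2482843 windows tested 51.4% were higher with a median of 0.01, and on chromosome 12 it was 81.5% with a median of 0.14. At p below 0.05, 185 windows of the interval (12.8%) passed, against 6.23% of all windows. Of these, 182 were higher (12.6% of the interval's windows, against 3.57% of all) and 3 lower (0.207% against 2.66%). None of them reached p below 0.0001, the study's threshold for a differential histone retention region (DHR), which 0.013% of all windows reached, and none had an adjusted p below 0.05, which 0.000121% of all windows had. DESeq2's Wald test and edgeR's exact test also gave 0 windows of the interval at p below 0.0001, where 0.0149% and 0.0299% of 26783 random windows passed. With the atrazine animals tagged DMSO left out, 305 windows (21.05%) passed p below 0.05, against 8.87% of a random sample of 26588 windows outside the interval. With those 13 animals alone against the control lineage, 54 windows (3.72%) passed, against 4.07% of 26859 random windows, and 52.5% of the interval's windows were higher. Among 186 other stretches of 1.5 Mb on chromosome 1, 8 had a larger lineage difference in share than the interval and 178 a smaller or negative one. In 176 of these stretches the CV of the share between animals was also lower than in the interval. Whether the rank of the lineage difference goes beyond this spread was not tested. Windows next to each other share animals and are not independent.

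The window with the smallest p, chr1:215908001-215909000, lies beside a peak window but is none itself, at 1.38 times the chromosome 1 median. Control animals had 0.238 to 0.904 RPM with a median of 0.394, and atrazine animals 0.225 to 0.868 RPM with a median of 0.578. The ranges overlapped almost wholly, and 40 of 50 atrazine animals were above the control median. The log2 fold change was 0.44 ± 0.12 (SE), with p = 0.000549 and an adjusted p of 0.801 in edgeR's quasi-likelihood test, and 0.42 with an unadjusted edgeR p of 0.00885 for the atrazine animals tagged DMSO alone. Further on, chr1:215914001-215915000 had the smallest p among windows lower in the atrazine lineage, with a log2 fold change of -0.26 ± 0.11 (SE) and an unadjusted edgeR p of 0.0256, which was 0.054 with the tagged animals left out.

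The share of the interval's own reads that fell in the 19 peak windows was 2.98% ± 0.283 (SD, n = 16) in control and 2.80% ± 0.248 (SD, n = 50) in atrazine animals. It ranged from 2.31% to 3.50% and from 2.06% to 3.22%. The log2 difference of -0.09 ± 0.04 (SE) had a permutation p of 0.0169, and its adjusted p of 0.102 over 6 comparisons did not pass. With a lower peak threshold, which gave 39 peak windows, it was -0.058, with a permutation p of 0.116, and for the atrazine animals tagged DMSO alone it was -0.022, with a permutation p of 0.63. Neither of the strong runs differed between lineages beyond the spread of the animals. The sum over chr1:216042001-216047000 was 5.59 ± 0.617 RPM (SD, n = 16) in control and 5.48 ± 0.854 RPM (SD, n = 50) in atrazine animals, with a permutation p of 0.679. The sum over chr1:216032001-216035000 was 2.58 ± 0.520 and 3.28 ± 3.38 RPM (SD), with a permutation p of 0.259, and without M28 and M48 the atrazine mean was 2.69 ± 0.590 RPM (SD, n = 48). These runs were chosen after their values were seen, and the 12 tests on them, lineages and diseases together, had adjusted p of at least 0.622. In multiple disease the log2 difference over chr1:216042001-216047000 was -0.05, with a permutation p of 0.895. Without M48 it was 0.10, with an unadjusted permutation p of 0.0197 and 5.81 ± 0.344 RPM (SD, n = 13) against 5.43 ± 0.455 RPM (SD, n = 17).

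The disease comparisons ask whether sperm of animals with a given disease differs from that of animals of the same lineage without one. Each used the same 17 atrazine animals without disease, so their results are not independent of each other. These 17 had 453 to 752 RPM in the interval, with a mean of 554 ± 66.2 (SD). Among them M62, M65, M67 and M69 were tagged DMSO. Of the animals with disease, M66 (lean), M60 and M64 (kidney disease) and M57, M58, M61 and M63 (multiple disease) were tagged DMSO. The testis disease and late puberty groups held no tagged animal. In none of the 5 comparisons did the interval's share of reads or its share in peak windows pass a two-sided permutation test, with adjusted p between 0.325 and 0.959 for the first and between 0.252 and 0.484 for the second.

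In lean animals, the size of the difference rested on single animals. M28 had 889 RPM, M42 had 726, M54 had 600, M56 had 562 and M66 had 468. The first 4 were above the median of the animals without disease and M66 was near their lower end. The log2 difference was 0.20 ± 0.16 (SE) with an exact permutation p of 0.108, it was 0.079 with p = 0.444 (exact) without M28, and 0.31 with p = 0.0221 (exact) without M66. M66 was the only lean animal tagged DMSO. With the tagged animals of both groups left out, the log2 difference was 0.26 with an unadjusted exact permutation p of 0.0513. Set against the reads of chromosome 12 it was 0.015 with p = 0.448 (exact), and -0.0045 with p = 0.867 (exact) when M28 was also left out. In the lean comparison 77.3% of the windows tested in the interval were higher, and 76.6% of those on chromosome 12. At p below 0.05, 244 of 1448 windows (16.9%) passed against 11.4% of all windows. Of these, 223 were higher (15.4% of the interval's windows, against 5.96% of all) and 21 lower (1.45% against 5.41%). Without M28 69 windows (4.77%) passed, against 6.17% of 26043 random windows in the same fit. With all lean animals none reached p below 0.0001, against 0.0402% of all windows. DESeq2's Wald test gave 1 window there (and 0.058% of random windows) and edgeR's exact test 2 (and 0.0851%).

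The smallest p among higher windows was at chr1:216664001-216665000, where M28 had 1.40 RPM, M42 had 0.542, M56 had 0.510, M66 had 0.355 and M54 had 0.297. All 5 were above the median of 0.277 RPM in the animals without disease, which ranged from 0.0806 to 0.514. The log2 fold change of 1.09 ± 0.28 (SE) had an edgeR p of 0.000231 (adjusted p of 0.24), and it was 0.57 with p = 0.0555 in the same test without M28. The smallest p among lower windows was at chr1:216071001-216072000, where M28 had 0.113 RPM from 3 reads, M42 had 0.119, M54 had 0.141, M66 had 0.236 and M56 had 0.292. All 5 were below the median of 0.433 RPM without disease, which ranged from 0.120 to 0.558, and 2 were below all 17. The log2 fold change was -1.19 ± 0.31 (SE), with an edgeR p of 0.000285 and an adjusted p of 0.24.

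In animals with testis disease, the strongest difference was in the window chr1:216302001-216303000, which the study lists under Kcnq1 and which is the sole window of the interval in its lists of DHRs. Those lists were made from the same animals, so the listing is no independent evidence for the difference. The study's list for lean animals is given at a stricter p threshold than its other lists. Lean DHRs of the interval that pass only the weaker threshold would not appear there. M29 had 0.0877 RPM from 5 reads, M32 had 0.314 RPM from 21 reads, M33 had 0.0253 RPM from 1 read and M41 had 0.274 RPM from 21 reads. The 17 animals without disease had 0.210 to 0.675 RPM with a median of 0.456. All 4 were below that median, and M29 and M33 were below all 17, while M32 and M41 lay within the range. The log2 fold change was -1.16 ± 0.29 (SE), with an edgeR p of 0.00012 and an adjusted p of 1 over all windows. Leaving out each of the 4 in turn gave -1.53 to -0.89, with unadjusted edgeR p between 3.15e-05 and 0.00394. In the other comparisons of this window the log2 fold change was -0.10 between the lineages, 0.25 in lean animals, -0.31 in late puberty, -0.27 in multiple disease and -0.26 in kidney disease, with unadjusted edgeR p between 0.0958 and 0.491. The level of this window over all animals, 0.391 RPM or 1.03 times the chromosome 1 median, was close to that of the median window.

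**Figure D5:**
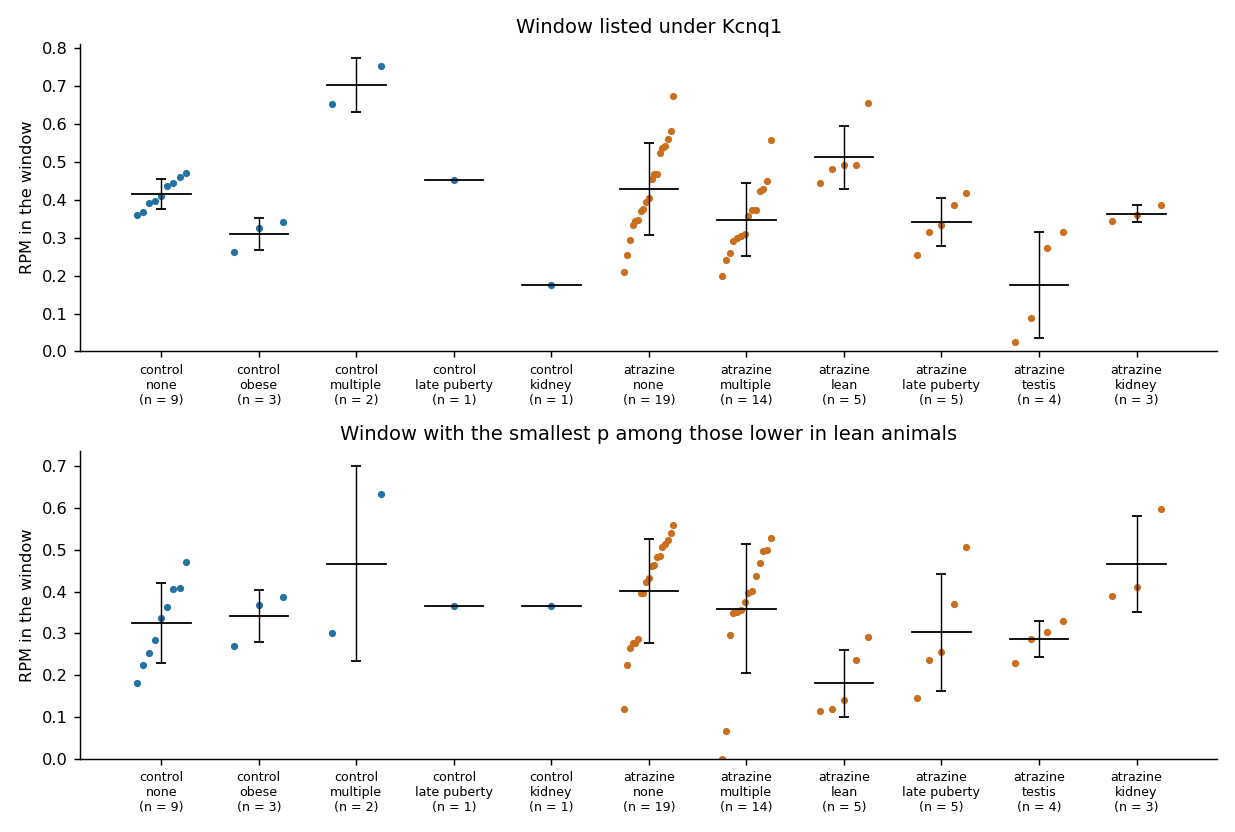
RPM of each animal by group in the window listed under Kcnq1 and in the window with the smallest p among those lower in lean animals, with the mean as a line and the SD as an error bar. In the first, 2 of 4 testis disease animals lie below all animals without disease used for comparison, and in the second, 2 of 5 lean animals do.

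Over the interval the 4 testis disease animals had 518 to 551 RPM with a mean of 533 ± 14.8 (SD), inside the range without disease, with a log2 difference of -0.05 ± 0.04 (SE) and an exact permutation p of 0.62. With the animals tagged DMSO left out of those without disease, the log2 difference was -0.094, with an unadjusted exact permutation p of 0.19. At p below 0.05, 66 of 1450 windows (4.55%) passed against 3.65% of all windows. Of these, 54 were lower (3.72% of the interval's windows, against 2.11% of all) and 12 higher (0.828% against 1.53%). None reached p below 0.0001, which 0.00533% of all windows reached, while edgeR's exact test gave 1 window and DESeq2's Wald test 0, each with 2 of 26489 random windows. The window of the exact test was the one listed under Kcnq1, with an unadjusted p of 9.81e-05 in that test. The smallest p among higher windows was at chr1:215753001-215754000, with 0.489 ± 0.129 RPM (SD, n = 4) against 0.295 ± 0.0817 (SD, n = 17) and an adjusted edgeR p of 1.

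For the animals with kidney disease, multiple disease or late puberty, no difference in the interval's share was detectable. The 3 kidney disease animals had 496 to 588 RPM, the 5 late puberty animals 515 to 608 RPM and the 14 multiple disease animals 513 to 1303 RPM, where the highest without M48 was 606. The log2 difference was -0.028 ± 0.081 (SE) in kidney disease, with an exact permutation p of 0.832. It was -0.0039 ± 0.056 (SE) in late puberty, with an exact permutation p of 0.959. With each diseased animal left out in turn it went from -0.089 to 0.033 in kidney disease and from -0.041 to 0.019 in late puberty. The lowest exact permutation p among these was 0.386. In multiple disease it was 0.07 ± 0.10 (SE), with a permutation p of 0.548, and -0.02 without M48. Scaled by DESeq2 size factors it was 0.14, with a permutation p of 0.539. Without the animals tagged DMSO it was 0.046 in kidney disease, where M23 alone remained, -0.051 in late puberty and 0.077 in multiple disease. At p below 0.05, 41 of 1450 windows (2.83%) passed in kidney disease against 2.76% of all windows, 58 of 1448 (4.01%) in late puberty against 3.48%, and 54 of 1447 (3.73%) in multiple disease against 3.2%. The multiple disease count was 177 by DESeq2's Wald test (12.2%, against 6.44% of random windows) and 175 by edgeR's exact test (12.1% against 6.19%). None reached p below 0.0001 in edgeR's quasi-likelihood test, its exact test or DESeq2's Wald test, where the shares of all windows in the first of these were 0.00252%, 0.00363% and 0.00137%. In the exact and Wald tests 0 random windows passed in kidney disease. The shares were 0.0189% and 0.0114% in late puberty, and 0.00384% in each test in multiple disease. In multiple disease 48 of the 54 were higher, 3.32% of the windows tested against 1.89% of all windows. This direction rested on M48. Without it 64 windows (4.42%) passed, against 3.90% of 26259 random windows in the same fit, and 21 of the 64 were higher. Of the windows tested in the interval 66.6% were higher with M48 and 42.7% without it. Over all windows tested 54.4% were higher with M48, and 49.2% of random windows were higher without it.

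The windows with the smallest p in these groups did not pass adjustment. In kidney disease, chr1:215722001-215723000 had 0.115 RPM in M23, 0.148 in M60 and 0.352 in M64, against 0.194 to 1.00 RPM with a median of 0.353 without disease. M23 and M60 were below all 17 animals and M64 lay just under their median. The log2 fold change was -1.15 ± 0.36 (SE), with an edgeR p of 0.00195. In late puberty, chr1:215996001-215997000 had 0.203 RPM in M35, 0.209 in M51, 0.241 in M36, 0.255 in M38 and 0.284 in M50, against 0.209 to 0.648 RPM with a median of 0.446. All 5 were below that median and 1 was below all 17. The log2 fold change was -0.84 ± 0.24 (SE), with an edgeR p of 0.000594 and an adjusted p of 1. In multiple disease, chr1:215593001-215594000 was higher, with 0.470 ± 0.116 RPM (SD, n = 14) against 0.350 ± 0.0984 (SD, n = 17) and an unadjusted edgeR p of 0.00813.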

How the data were processed

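The authors cleaned the reads with Trimmomatic, mapped them to Rnor 6.0 with Bowtie2 and counted them with MEDIPS, and deposited read counts per window of 1000 bp without normalization. Another 298 columns, with RPKM values or repeated counts, and the authors' fold changes and p-values were not used. RPM values divide a count by the animal's total over all windows (19909382 to 239635003 reads). Windows averaging 10 reads or more were compared in R 4.3.3 with edgeR 4.0.16 (TMM factors, dispersion trend from 200000 random windows, quasi-likelihood test), with Benjamini-Hochberg adjustment over all windows of the genome, and the method was tested on simulated data. Shares of reads were compared on the log2 scale by two-sided permutation tests in SciPy 1.17.1, exact where a group had fewer than 10 animals and otherwise with 100000 resamples, adjusted over 6 comparisons. M59 and M68 (no disease) enter the lineage comparison alone, since the deposited disease tables leave them out, and animal M1 of 67 listed animals was not analysed here.

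Windows named in the text are the 10 with the highest mean, the longest peak runs, those with the smallest p of each comparison in each direction, the window in the study's lists and the largest CV; not all are described. The windows, lists and tests were chosen with earlier results of these data known. Alternatives were other library scalings (DESeq2 1.42.0 size factors, TMM totals, other chromosome 1 windows), other tests and filters, other peak thresholds, and other sets of animals; those with chromosome 12 totals, and those that split the atrazine lineage by the treatment tag, were added after the data were seen. Shares of random windows come from 30000 windows fitted together with the interval. The p-values measure the spread between libraries, each labelled as 1 animal. Exposure was given to F0 females, and the labels name neither litters nor founders. Kinship between animals was therefore not taken into account, and the tests treat related animals as independent.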

Additional observations from a re-analysis of the deposited data

Results flagged for a closer look

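Single animals far from the others of their group were looked for in groups of 4 to 10 animals, with 100 groups and values tested and 11 found. The rule is set to mark about 1 in 20 groups of independent values by chance. These groups share animals and some windows were chosen for a small p, so the rate for them was not measured. Of the 11, 4 were M28 among the 5 lean animals. M28 had 1.13 RPM at chr1:215722001-215723000 (the others 0.207 to 0.474), 5.93 RPM at chr1:216033001-216034000 (0.975 to 1.88), 1.40 RPM at chr1:216664001-216665000 (0.297 to 0.542) and 1.59 RPM at chr1:216703001-216704000 (0.236 to 0.467). Also among the lean animals, M56 had 0.656 RPM in the window listed under Kcnq1, where the others had 0.443 to 0.491. Among the 4 testis disease animals M41 had 0.469 RPM at chr1:215685001-215686000 (the others 0.269 to 0.298), and M33 had 1.44 RPM at chr1:216042001-216043000 (0.847 to 0.913). Among the 9 control animals without disease, M16 had 1.71 RPM at chr1:216043001-216044000 (0.940 to 1.33) and 2.22 RPM at chr1:216046001-216047000 (1.03 to 1.39). M6 had 0.578 RPM at chr1:216045001-216046000 (1.01 to 1.43), and M8 had 0.579 RPM at chr1:216922001-216923000 (0.213 to 0.348).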

How the results depend on the processing

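The lineage difference in the interval's share of reads kept its direction and passed p below 0.05 in 9 of 10 alternatives, from 0.02 to 0.19 on the log2 scale. The exception, chosen after the data were seen, was the atrazine animals tagged DMSO alone (0.0064, permutation p of 0.892). Their peak share did not pass either (-0.022). The count of windows with p below 0.05 was 185 for all animals (12.8%, against 6.23% of all windows). It was 54 for the tagged animals alone (3.72%, against 4.07% of random windows) and 305 without them (21.05% against 8.87%). The lineage's peak share was weaker at the lower peak threshold (-0.058), and at 2 times the median the interval had 8 peak windows. With lean animals left out in turn the interval share went from 0.079 to 0.31 and the peak share from -0.19 (without M66, unadjusted exact permutation p of 0.0424) to -0.037. Without the animals tagged DMSO the peak share had an unadjusted exact permutation p of 0.037 in testis disease (0.13) and 0.0196 in late puberty (0.12). The lean count of windows with p below 0.05, 244, was 138 at a mean of at least 20 reads (13.6%, against 11.3% of random windows in the same fit), 69 without M28 and M48, and 69 to 371 with each animal left out (69 or 4.77% without M28 against 6.17%, 145 or 10.02% without M42 against 6.93%, 371 or 25.6% without M66 against 16.5%). At p below 0.0001 lean had 1 window by DESeq2's Wald test, 2 by edgeR's exact test, 1 without the animals tagged DMSO and 0 to 3 with each animal left out (3 without M54, 2 without M66), where 0.0115% to 0.139% of random windows passed, and testis disease had 1 by the exact test and 0 to 1 with each left out (1 without M32, with 1 of 26416 random windows, and 0 to 3 random windows over these fits). The multiple disease count of 54 was 177 by DESeq2's Wald test (12.2%, against 6.44% of random windows), 175 by the exact test (12.1% against 6.19%) and 87 without the animals tagged DMSO (6.00% against 3.35%). The kidney disease count of 41 was 27 to 59 with each left out (27 or 1.86% without M64 against 1.89% of random windows, 59 or 4.07% without M60 against 4.00%). At chr1:216649001-216650000, higher in kidney disease, p was 0.0607 in edgeR's quasi-likelihood test without M23. In each of these the cause was not tested beyond the animals or windows left out. No paired analysis was possible because no animal belongs to more than 1 group. A window at 10 reads has a large counting error, and small differences in single windows may have been missed. How small a difference could be detected was not tested. Which animals shared a sequencing lane is not given in the sources used here, so lanes could not be compared.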
